A study of Mus musculus with 9 samples.

Results

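Transcripts of 7 enzymes that supply NADPH or carry carbon through the pentose phosphate pathway were followed in epididymal adipose tissue during weight loss. The enzymes are malic enzyme 1 (*Me1*), glucose-6-phosphate dehydrogenase (*G6pdx*), phosphogluconate dehydrogenase (*Pgd*), transketolase (*Tkt*), transaldolase (*Taldo1*), isocitrate dehydrogenase 1 (*Idh1*) and malate dehydrogenase 1 (*Mdh1*). They were taken by gene symbol from the authors' table of counts, which lists 56748 genes. All 7 were found, and all 7 were among the 18510 genes tested. Between 3464 and 13335 reads were counted on each of them in each library. The animals were male wild-type C57BL/6J mice that entered the experiment at 8 weeks of age and received a high-fat diet (HFD) for 8 weeks. They were sampled at that point (Pre) or after a further 1 week (WL1) or 2 weeks (WL2) on a standard diet (SD), which makes obese mice lose weight. RNA sequencing libraries of the tissue numbered 3 per phase. The WL1 and WL2 mice were older than the Pre mice, and no library came from mice kept on HFD for the same time, so that diet and age cannot be told apart.

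NADPH is the reduced cofactor that fatty acid and sterol synthesis, and the glutathione and thioredoxin systems, draw on. In the cytosol its sources include both dehydrogenases of the oxidative branch of the pentose phosphate pathway, G6PDX and PGD, malic enzyme and IDH1. The non-oxidative branch, with transketolase and transaldolase, exchanges pentose phosphates with intermediates of glycolysis. MDH1 makes no NADPH: it reduces oxaloacetate with NADH and so provides the malate that malic enzyme turns into pyruvate. In white adipose tissue these enzymes are known to be regulated together with fatty acid synthesis by feeding, insulin and the carbohydrate content of the diet.

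Libraries held 16434450 to 22729072 counted reads, so that counting error of a member, 0.94% to 1.64% of its mean count in a phase, was smaller than the spread between libraries. Markers of adipocytes were abundant in every library (a summed 32005 to 56253 CPM for 14 genes, where CPM are counts scaled to a common library size with TMM factors). Each of the 8 epididymis markers had at most 19 reads in a phase (*Rnase10* at Pre), and 2 of them, *Defb20* and *Spink11*, were at 0 throughout. Pre replicate 2 stood apart in lymphocyte markers, with a sum of 174 CPM over 8 genes against 4.84 to 15.3 CPM in the other 8 libraries. Of the calls of the 7 enzymes, that of *Tkt* at WL2 was lost without this library, and its value is given there. Of the other genes outside the marker lists, *Mdh2*, *Slc25a13* and *Nox4* lost their calls at WL1 without it, with log2 fold changes of -0.43, 1.699 and 0.78 (edgeR adjusted p = 0.0742, 0.0762 and 0.0539). The share of reads on mitochondrial genes also separated the phases, at 3.15% to 3.57% in Pre, 1.86% to 2.03% in WL1 and 2.28% to 2.88% in WL2, and its part in the levels of the 7 enzymes was not tested.

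After 1 week of SD, 4 of the 7 enzymes fell: *Me1*, *Taldo1*, *Pgd* and *Mdh1*. After 2 weeks, 5 of the 7 were below Pre: *Pgd*, *Me1*, *Taldo1*, *Idh1* and *Tkt*. No member was called higher than Pre at either time, and *G6pdx*, the entry enzyme of the pentose phosphate pathway, was called in no comparison. Between WL1 and WL2, *Pgd* alone changed, and it fell further. Phases were compared with edgeR (quasi-likelihood F-test, all 9 libraries fitted together), and p-values were adjusted over all genes tested by the Benjamini-Hochberg method, with a threshold of 0.05. Over all genes tested, 4.69% were called lower at WL1 than at Pre, 6.66% lower at WL2 than at Pre and 2.37% lower at WL2 than at WL1. The shares called higher were 2.6%, 3.35% and 1.31%, and those called in either direction 7.29%, 10% and 3.68%. DESeq2, an alternative, called 5, 6 and 4 of the 7 enzymes in these comparisons, beside 14.4%, 16% and 11.9% of all genes with an adjusted p. The median log2 fold change of the 7 enzymes was -0.60 at WL1 and -0.63 at WL2 against Pre, beside medians of 0.02 and 0.00842 over all genes tested. The libraries of 6 of the 7 did not overlap those of Pre and lay below them at WL1, and the same count held at WL2; among all genes this was so in 13.9% and 15.8%. At WL2, 3 lay wholly below WL1 (*Pgd*, *Idh1* and *G6pdx*) and 1 above it (*Mdh1*), against 16.4% and 13.9% of all genes. The comparisons with Pre use the same Pre libraries and are not independent of each other. In bulk tissue, fewer cells of a type and less RNA per cell cannot be told apart.

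**Figure D1:**
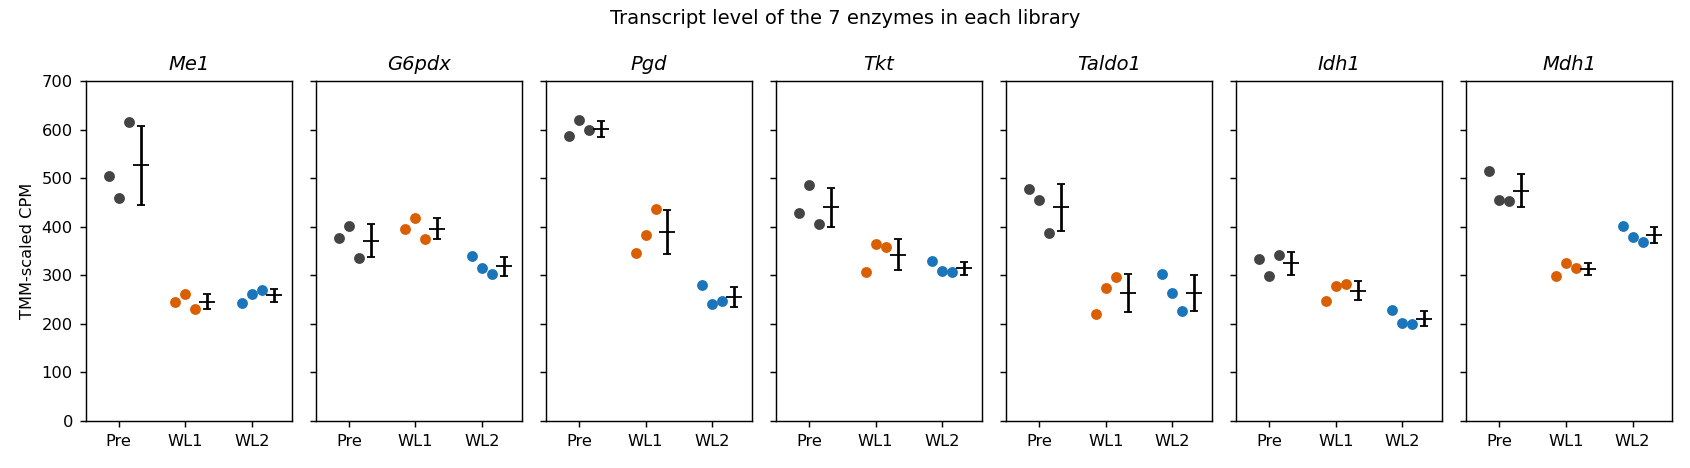
TMM-scaled CPM of the 7 enzymes (vertical axis) in the libraries of Pre, WL1 and WL2; each point is 1 library, and the black mark with its bar is the mean with the SD of 3 libraries. The WL1 and WL2 libraries of *Me1* lie between 230.3 and 271 CPM, below the Pre libraries, which start at 458 CPM, whereas those of *G6pdx* at WL1 overlap its Pre libraries.

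The oxidative branch of the pentose phosphate pathway was split between its 2 dehydrogenases. *Pgd* (ENSMUSG00000028961, chromosome 4, 149234448 to 149251228, minus strand, in the coordinates of the authors' table) encodes the enzyme of the third step, which oxidizes 6-phosphogluconate. It had 587, 619 and 598 CPM in the Pre libraries, 347, 384 and 436 CPM at WL1 and 279, 240.1 and 248 CPM at WL2. Its libraries formed 3 separate groups, one per phase, in descending order. The means of *Pgd* were 601 ± 16.3 CPM in Pre, 389 ± 44.9 in WL1 and 256 ± 20.7 in WL2 (n = 3, with the SD). Against Pre, edgeR gave log2 fold changes of -0.63 (SE 0.12, adjusted p = 0.0122) at WL1 and -1.23 (SE 0.12, adjusted p = 0.000154) at WL2, which at WL2 amounts to a fall of 57.5%. From WL1 to WL2 it fell by a further 0.60 on the log2 scale (SE 0.12, edgeR adjusted p = 0.0250). This last call was lost without WL1 replicates 2 or 3 or WL2 replicates 2 or 3, with log2 fold changes from -0.68 to -0.50 over the 9 fits that each left out 1 library, whereas both comparisons with Pre were called in each of these fits.

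*G6pdx* (ENSMUSG00000031400, chromosome X, 73453089 to 73472800, minus strand) encodes the first and rate-limiting enzyme of the same pathway. It had 376, 402 and 336 CPM at Pre, 395, 417 and 374 CPM at WL1 and 340.1, 314 and 302 CPM at WL2. Its WL1 libraries overlapped those of Pre, and its WL2 libraries overlapped those of Pre by 1 library and lay below those of WL1. The log2 fold change was 0.09 (SE 0.11, adjusted p = 0.651) at WL1 against Pre, with a 95% interval from -0.15 to 0.33. At WL2 against Pre it was -0.22 (SE 0.11, adjusted p = 0.231), with an interval from -0.46 to 0.02. At WL2 against WL1 it was -0.31 (SE 0.11, adjusted p = 0.130) by edgeR and passed in DESeq2 alone (adjusted p = 0.0453). The intervals, which are for single genes without adjustment, leave room for a rise of up to 0.33 or a decrease of up to 0.15 at WL1 on the log2 scale. *Ikbkg*, on the opposite strand, overlaps *G6pdx* in the authors' coordinates and held 8775 reads in all against 60925 of *G6pdx*. The sources used here do not give the strand setting of the counting, so that reads of both could not be told apart where they overlap. *Ikbkg* had log2 fold changes of -0.16 and -0.18 at WL1 and WL2 against Pre (edgeR adjusted p = 0.337 and 0.286). The intronless copy of *G6pdx*, *G6pd2*, had 1 read over the 9 libraries.

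Promoter windows of *Me1*, *Pgd* and *G6pdx* are shown because the first pair had the largest falls at WL2 and the third was not called. They are RefSeq sequences of GRCm38.p6, each with 250 bases before and 50 bases after an annotated start site, written 5′ to 3′ on the strand of the gene. Capitals mark matches to an antioxidant response element (TGACNNNGC) or a CCAAT box (CCAAT) on either strand.
Me1 (chr9:86695865-86696164, minus strand): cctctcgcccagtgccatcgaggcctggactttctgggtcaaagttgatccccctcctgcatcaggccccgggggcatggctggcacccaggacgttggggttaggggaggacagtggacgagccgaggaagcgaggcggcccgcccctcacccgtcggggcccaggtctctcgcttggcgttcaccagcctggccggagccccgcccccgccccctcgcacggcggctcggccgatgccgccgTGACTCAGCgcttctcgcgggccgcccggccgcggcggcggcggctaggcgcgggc
Pgd (chr4:149166656-149166955, minus strand): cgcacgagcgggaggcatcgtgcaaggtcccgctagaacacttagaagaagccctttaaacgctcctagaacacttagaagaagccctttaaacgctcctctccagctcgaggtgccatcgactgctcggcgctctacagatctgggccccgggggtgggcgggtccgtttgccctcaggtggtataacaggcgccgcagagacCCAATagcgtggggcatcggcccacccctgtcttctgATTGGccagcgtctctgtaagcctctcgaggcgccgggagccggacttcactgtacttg
G6pdx (chrX:74428831-74429130, minus strand): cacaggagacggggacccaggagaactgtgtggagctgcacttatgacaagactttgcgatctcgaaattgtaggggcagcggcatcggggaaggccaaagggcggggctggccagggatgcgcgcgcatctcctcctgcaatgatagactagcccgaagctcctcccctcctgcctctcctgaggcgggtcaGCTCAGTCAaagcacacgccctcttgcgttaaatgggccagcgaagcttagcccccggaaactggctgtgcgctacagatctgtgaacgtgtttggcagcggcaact
The table of RefSeq windows held 10 windows for the 7 genes, with a second window each for *Me1*, *Pgd* and *Idh1*. Matches to the antioxidant response element were found in 4 of the 10, in *Me1*, *G6pdx*, *Mdh1* and the second window of *Pgd*, against 12.4% of all 32851 windows. In *Me1* the match begins 6 bases before the start site and in *G6pdx* 57 bases before it. In *Mdh1* and the second window of *Pgd* it begins after the start site, at bases 6 and 4. Whether the matches after the start site lie in coding sequence was not examined. A CCAAT box was found in 5 of the 10 windows, against 37.4% of all, and those of *Pgd* lie 46 and 9 bases before the start. The E-box of carbohydrate response elements (CACGTG) and a sterol regulatory element (TCACNCCAC), found in 7.15% and 1.24% of all windows, were in 0 of the 10. All 4 motifs were searched on both strands, and none of the matches printed above overlaps another. A match is a string of letters and not evidence of binding, and windows of this length leave out distant elements.

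In the non-oxidative branch, transaldolase and transketolase were both below Pre, to different extents. *Taldo1* (ENSMUSG00000025503, chromosome 7, 140972112 to 140982881, plus strand) had 478, 456 and 386 CPM at Pre, 220.1, 274 and 296 CPM at WL1 and 302, 263 and 227 CPM at WL2. All 6 libraries after SD lay below the lowest Pre library, and those of WL1 and WL2 overlapped. It fell by 0.74 at WL1 (SE 0.15, edgeR adjusted p = 0.0181) and by 0.74 at WL2 (SE 0.15, edgeR adjusted p = 0.0132) on the log2 scale, and the log2 difference between WL2 and WL1 was 0.00432 (interval from -0.33 to 0.34). Its coefficients of variation, 10.9%, 14.8% and 14.2% at Pre, WL1 and WL2, were the largest of the 7 at WL1 and WL2, while at Pre that of *Me1* was larger (15.3%). The call at WL1 was lost without Pre replicate 1 or WL1 replicates 1 or 2, and that at WL2 without WL2 replicates 2 or 3, with log2 fold changes from -0.84 to -0.63 and from -0.84 to -0.64 over the fits without 1 library.

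*Tkt* (ENSMUSG00000021957, chromosome 14, 30270316 to 30296677, plus strand) had 428, 485 and 406 CPM at Pre, 306, 364 and 358 CPM at WL1 and 329.7, 308 and 306 CPM at WL2. The Pre libraries lay above all others, while those of WL1 and WL2 overlapped. At WL2 it fell by 0.48 on the log2 scale (SE 0.11, edgeR adjusted p = 0.0245), a call that was lost without Pre replicates 1 or 2 or WL2 replicates 2 or 3 (its fold change spanned -0.54 to -0.41 on the log2 scale over the fits without 1 library). Without Pre replicate 2, the library with the high lymphocyte markers, it was -0.41 (edgeR adjusted p = 0.0563). At WL1 its log2 fold change of -0.36 did not pass in edgeR (adjusted p = 0.0844) and passed in DESeq2 (adjusted p = 0.0147). At WL2 against WL1 it was -0.12, with an interval from -0.37 to 0.13.

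*Me1* (ENSMUSG00000032418, chromosome 9, 86463424 to 86578006, minus strand), the cytosolic enzyme that oxidizes malate to pyruvate and reduces NADP, had 505, 458 and 615 CPM at Pre, 246, 261 and 230.3 CPM at WL1 and 243, 262 and 271 CPM at WL2. Pre replicate 3 was the highest library, and the 6 libraries after SD lay close together, with the WL1 and WL2 values interleaved. The level at WL1 was 0.467 times that at Pre, and the log2 fold change, the largest fall of the 7 at that time, was -1.10 (SE 0.13, adjusted p = 0.00117) in edgeR. At WL2 it was 0.492 times Pre, with a log2 fold change from edgeR of -1.02 (SE 0.13, adjusted p = 0.000813). The values with each library left out in turn ranged from -1.19 to -0.97 and from -1.11 to -0.90, and each was called. Between WL2 and WL1 the log2 difference was 0.07 (interval from -0.20 to 0.35, edgeR adjusted p = 0.799).

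*Mdh1* (ENSMUSG00000020321, chromosome 11, 21506692 to 21522367, minus strand), the enzyme before malic enzyme in the pyruvate and malate cycle, had its lowest values at WL1. It had 514, 456 and 453 CPM at Pre, 299, 325 and 314 CPM at WL1 and 401, 379.8 and 368 CPM at WL2. The phases did not overlap, with WL2 between WL1 and Pre. It fell at WL1 by 0.60 on the log2 scale (SE 0.10, edgeR adjusted p = 0.00824) and was called at WL1 in each fit that left out 1 library. At WL2 the log2 fold change against Pre was -0.31 (SE 0.10, adjusted p = 0.0830) and that against WL1 was 0.29 (SE 0.10, adjusted p = 0.127), neither of which passed in edgeR, although both passed in DESeq2 (adjusted p = 0.0125 and 0.0199). *Wdpcp*, which overlaps *Mdh1* on the opposite strand, held 1537 reads against 65365 of *Mdh1*.

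*Idh1* (ENSMUSG00000025950, chromosome 1, 65197775 to 65225659, minus strand), which reduces NADP while it oxidizes isocitrate in the cytosol and in peroxisomes, had 334, 298 and 342 CPM at Pre, 246, 278 and 281 CPM at WL1 and 228, 202 and 201 CPM at WL2. The 3 phases did not overlap and followed each other downward. At WL1 its log2 fold change of -0.28 (SE 0.11, adjusted p = 0.154) did not pass in edgeR. At WL2 it had fallen by 0.63 on the log2 scale, or 35.3% (SE 0.11, edgeR adjusted p = 0.00560), and it was called in each of the 9 fits that left out 1 library. The step from WL1 to WL2 was -0.35 (SE 0.11, adjusted p = 0.0950) in edgeR and passed in DESeq2 alone (adjusted p = 0.0306).

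**Figure D2:**
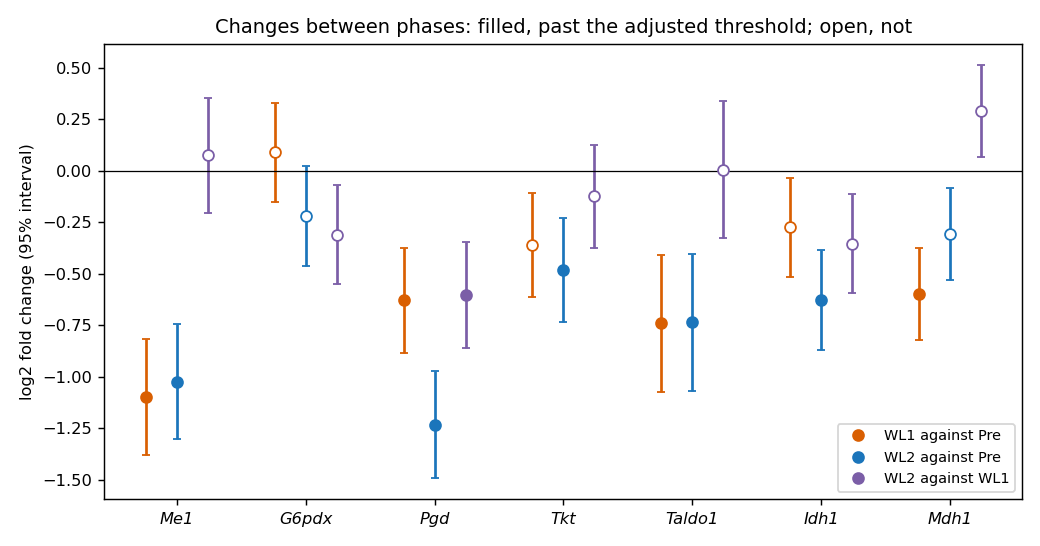
Log2 fold changes of the 7 enzymes (vertical axis) in the 3 comparisons of phases, from edgeR in one model of the 9 libraries; bars are 95% intervals of single genes, filled points passed the adjusted threshold and open points did not. *Me1* is near the same value at WL1 (-1.10) and WL2 (-1.02), *Pgd* goes from -0.63 to -1.23, and the intervals of *G6pdx* against Pre include 0.

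Levels of different enzymes were compared by the authors' FPKM, which are scaled by gene length. At Pre, *Taldo1* (190.2 ± 20.6 FPKM, SD, n = 3) and *Mdh1* (167 ± 11.9) were the most abundant, and their libraries overlapped. *Me1* (128 ± 19.7), *G6pdx* (113 ± 10.2) and *Idh1* (110.0 ± 7.83) followed, with overlapping libraries, and *Pgd* (87.6 ± 2.5) and *Tkt* (56.1 ± 5.23) lay below these and apart from each other. At WL1, *G6pdx* (119 ± 6.16), *Taldo1* (112 ± 16.4) and *Mdh1* (109 ± 4.08) overlapped at the top. *Me1* (59.1 ± 3.53) had moved below *Idh1* (89.6 ± 6.26) and overlapped *Pgd* (55.8 ± 6.43), with *Tkt* (43.1 ± 3.86) last. At WL2, *Mdh1* (135 ± 3.86) was highest, *Taldo1* (114 ± 14.4) and *G6pdx* (97.0 ± 4.33) overlapped, and *Idh1* (71.0 ± 3.95) lay above *Me1* (63.1 ± 4.41). *Tkt* (40.1 ± 0.970) and *Pgd* (37.2 ± 2.36) had overlapping ranges at the bottom, and *Pgd* was the lowest of the 7 in each WL2 library and in none of the other 6.

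The 4 enzymes that reduce NADP in the cytosol, *Me1*, *G6pdx*, *Pgd* and *Idh1*, together held 439 ± 15.2 FPKM in Pre, 323 ± 11.9 in WL1 and 268 ± 5.86 in WL2 (SD, n = 3). *Me1* made up 29.2 ± 3.44% of this sum at Pre, 18.3 ± 1.06% at WL1 and 23.5 ± 2.13% at WL2. *G6pdx* made up 25.8 ± 3.20%, 36.8 ± 1.89% and 36.1 ± 0.919%, and was the largest of the 4 in each of the 6 libraries after SD and in Pre replicate 2, with *Me1* the largest in the other Pre libraries. *Pgd* went from 19.96 ± 1.08% to 17.3 ± 1.78% and 13.8 ± 0.595%, and *Idh1* stood at 25.04 ± 1.15%, 27.7 ± 1.22% and 26.5 ± 0.886%. These are shares of transcripts and not of enzyme activity.

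**Figure D3:**
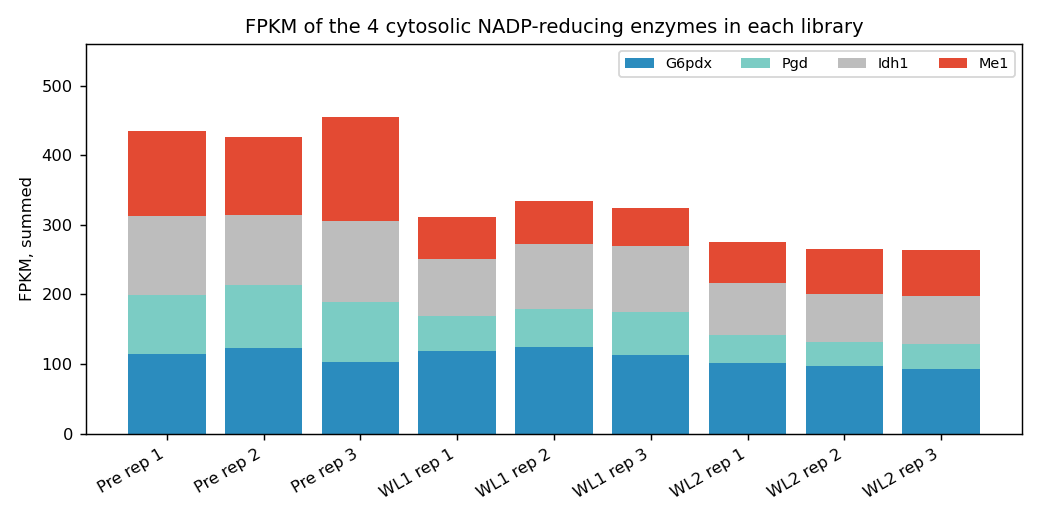
FPKM of *G6pdx*, *Pgd*, *Idh1* and *Me1* stacked for each library (vertical axis, summed FPKM). The sums run from 426 to 456 FPKM at Pre and from 264 to 275 at WL2; the *G6pdx* segment keeps a height of 92.8 to 125 FPKM in all libraries.

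Whether the enzymes moved apart from each other was tested on 9 ratios of FPKM within a library, which do not depend on how libraries are scaled. The share of the sum of squares of the log2 ratio that lay between phases was compared over the 280 divisions of 9 libraries into 3 groups of 3 (one-sided exact permutation test, adjusted over the 9 ratios; the smallest p before adjustment that this design allows is 0.00357). All 9 ratios passed. They were chosen with earlier results of these data known, so that their passing is not independent support. The share of other gene pairs that would pass was not measured. The ratio of *Me1* to *G6pdx* was 1.07, 0.912 and 1.47 in the Pre libraries, 0.498, 0.501 and 0.493 at WL1 and 0.573, 0.668 and 0.717 at WL2 (exact permutation, adjusted p = 0.00536). It was lower in each library after SD than in any Pre library, and lowest at WL1. *Pgd* to *G6pdx*, enzymes of 1 branch, went from 0.778 ± 0.0647 at Pre to 0.472 ± 0.0745 at WL1 and 0.383 ± 0.0155 at WL2 (exact permutation, adjusted p = 0.00536). *Tkt* to *G6pdx* was 0.496 ± 0.0169, 0.364 ± 0.0380 and 0.414 ± 0.00978 (exact permutation, adjusted p = 0.00536).

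*Me1* to *Idh1* was 1.16 ± 0.115 at Pre, 0.662 ± 0.0659 at WL1 and 0.892 ± 0.108 at WL2 (exact permutation, adjusted p = 0.00536). The ratio was thus lowest at WL1 and nearer to its Pre value at WL2. From WL1 to WL2 the log2 difference of *Me1* was 0.07 and that of *Idh1* was -0.35, which passed in DESeq2 alone. *Me1* to *Mdh1* went from 0.772 ± 0.146 to 0.544 ± 0.0323 and 0.469 ± 0.0453 (exact permutation, adjusted p = 0.00804). *Idh1* to its mitochondrial counterpart *Idh2* was alike at Pre (2.23 ± 0.374) and WL1 (2.14 ± 0.200) in overlapping libraries and was 1.14 ± 0.143 at WL2 (exact permutation, adjusted p = 0.0321). A ratio shows unequal change of 2 genes and not which of them changed.

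*Fasn*, fatty acid synthase, the main consumer of cytosolic NADPH in adipocytes, fell more steeply than any of the 7 enzymes, by 2.36 at WL1 and by 3.04 at WL2 on the log2 scale (edgeR adjusted p = 0.00135 and 0.000156). The ratio of *Me1* to *Fasn* therefore went upward, from 0.634, 0.454 and 0.628 at Pre to 1.46, 1.77 and 1.02 at WL1 and 3.57, 2.32 and 1.71 at WL2 (exact permutation, adjusted p = 0.00804). Relative to *Adipoq*, the adiponectin gene that adipocytes express, *Me1* went from 0.0723 ± 0.0276 to 0.0442 ± 0.00482 and 0.0295 ± 0.00428, and *G6pdx* from 0.0619 ± 0.0104 to 0.0890 ± 0.0104 and 0.0452 ± 0.00390 (SD, n = 3; exact permutation, adjusted p = 0.00536 for each). *Me1* to *Adipoq* was lowest at WL2, while *G6pdx* to *Adipoq* was highest at WL1 and lowest at WL2. *Adipoq* itself had log2 fold changes of -0.45 at WL1 and 0.21 at WL2 against Pre, which did not pass in edgeR (adjusted p = 0.165 and 0.508).

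**Figure D4:**
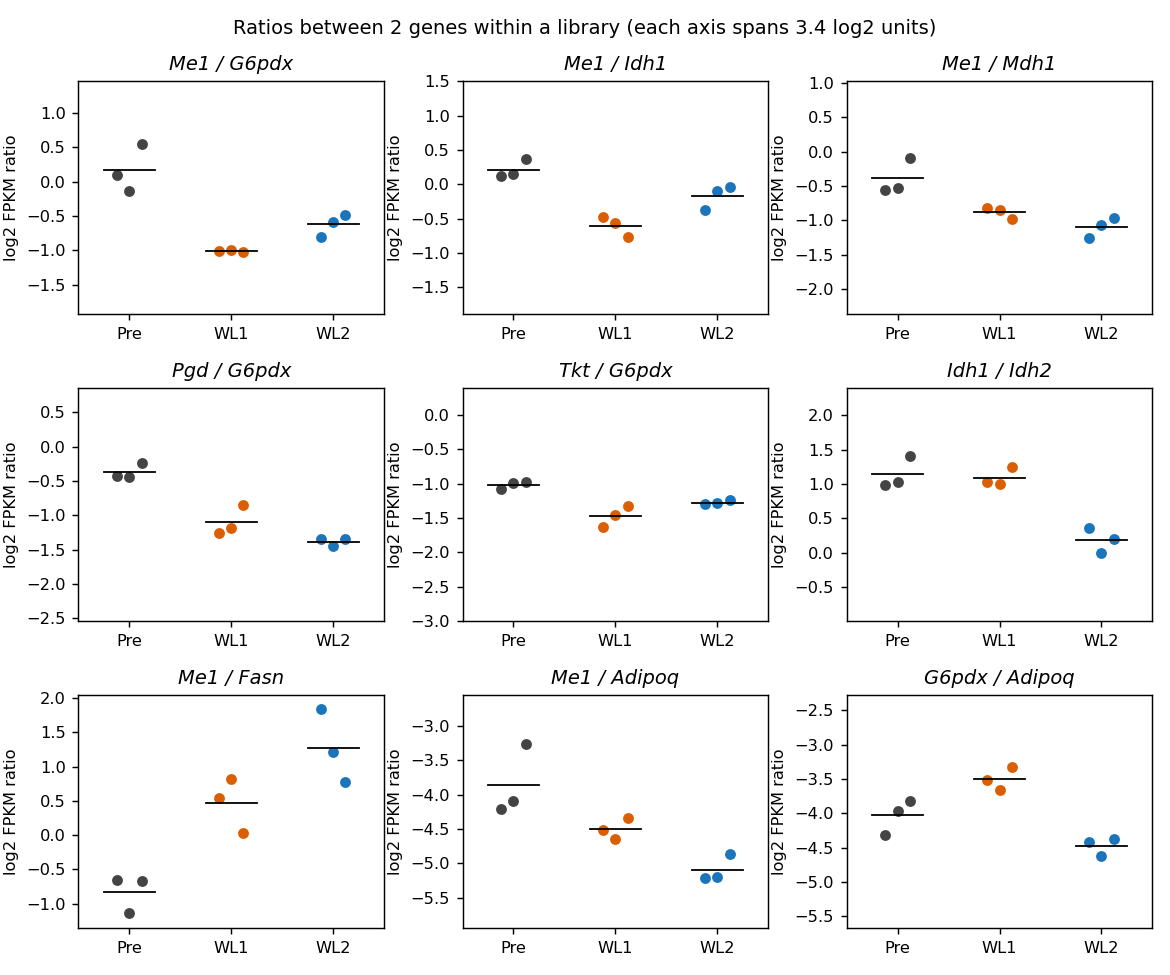
Log2 of the FPKM ratio of 2 genes within each library (vertical axis) by phase; points are libraries, lines are phase means, and each axis spans 3.4 log2 units. *Me1* / *G6pdx* has its lowest mean at WL1 (-1.01), *Pgd* / *G6pdx* goes down in both steps, to -1.39 at WL2, and *Me1* / *Fasn* goes up, from -0.82 at Pre to 1.28.

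The cytosolic enzymes were set beside their isoforms in other compartments. Per length, *Me1* was far above the mitochondrial malic enzymes, *Me2* (3.81 ± 0.208 FPKM at Pre) and *Me3* (0.123 ± 0.0195 FPKM), neither of which was called against Pre (*Me2* log2 fold changes -0.12 and -0.33, *Me3* 0.29 and 1.00 at WL1 and WL2). *Idh2*, the mitochondrial NADP-dependent isocitrate dehydrogenase, was not called against Pre and rose from WL1 to WL2 by 0.55 (edgeR adjusted p = 0.0421), in libraries that did not overlap. *Mdh2*, the mitochondrial malate dehydrogenase, fell at WL1 by 0.47 (edgeR adjusted p = 0.0379), a call lost in 6 of the 9 fits that left out 1 library (from -0.56 to -0.40), and had a log2 fold change of -0.20 at WL2. *H6pd*, which carries out the first steps of the pathway inside the endoplasmic reticulum, stood at 116 ± 13.3 FPKM at Pre, 121 ± 22.7 at WL1 and 121 ± 7.65 at WL2, and *Pgls*, the lactonase between G6PDX and PGD, had log2 fold changes of -0.09 and -0.10. *Nnt*, the mitochondrial transhydrogenase that makes NADPH and that C57BL/6J mice are known to lack, held 28 reads over the 9 libraries.

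The other enzymes of the pathway and the genes around it were tallied by 9 lists written from general knowledge. Of 10 tested genes among other pentose phosphate enzymes, 0 rose and 1 fell at WL1, and 0 rose and 3 fell at WL2 against Pre, with median log2 fold changes of -0.23 and -0.0963. The gene that fell at both times was *Rpe*, the ribulose phosphate epimerase (-0.89 and -0.55, edgeR adjusted p = 0.000771 and 0.00509). At WL2 it was joined by *Dera* (-1.06, adjusted p = 0.00919), which cleaves deoxyribose phosphate, and *Prps1* (-0.82, adjusted p = 0.0265), which makes the ribose donor of nucleotide synthesis, both by edgeR. The call of *Prps1* was lost without Pre replicates 1 or 3 or WL2 replicates 2 or 3 (from -1.13 to -0.69), and its WL2 libraries had 191, 111 and 113 CPM, the first apart from the others. That of *Dera* was lost in 1 such fit (from -1.29 to -0.90). Of 7 tested among other malic, isocitrate and malate dehydrogenases, 2 fell at WL1, *Mdh2* and *Idh3g* (the latter lost in 7 of the 9 fits without 1 library, from -0.48 to -0.34), and 0 changed at WL2 against Pre (DESeq2 called 1, and 4 had an unadjusted p under 0.05). Of 8 genes of folate metabolism, *Aldh1l1*, the cytosolic formyltetrahydrofolate dehydrogenase, fell at both times (-1.64 and -1.60, edgeR adjusted p = 0.000340 and 9.35e-05). *Mthfd1* fell at WL1 (-0.62, edgeR adjusted p = 0.0131, lost in 1 of the 9 fits). Of 9 tested genes of NAD and NADP synthesis, 0 changed at WL1 in edgeR (DESeq2 called 0, and 1 had an unadjusted p under 0.05). At WL2, 1 rose, *Nmnat3*, a gene of NAD synthesis (0.84, edgeR adjusted p = 0.0162), a call lost in 3 of the 9 fits (from 0.76 to 0.98). The transhydrogenase *Nnt*, on the same list, was too low to be tested.

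Genes that move citrate, malate and pyruvate between mitochondria and cytosol, and so feed malic enzyme and IDH1, held further genes that fell. Of 14, 8 fell and 1 rose at WL1, and 5 fell at WL2 against Pre, with medians of -0.56 and -0.29. *Slc25a1*, the mitochondrial citrate carrier, fell by 1.35 and 1.23 on the log2 scale, *Slc25a10*, the dicarboxylate carrier, by 1.53 and 1.76, and *Pcx*, pyruvate carboxylase, by 0.95 and 1.03 at WL1 and WL2 (each called by edgeR). *Slc25a13*, a mitochondrial aspartate and glutamate carrier, rose at WL1 by 1.57 (edgeR adjusted p = 0.0492), a call lost in 7 of the 9 fits that left out 1 library (from 1.29 to 1.73).

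Genes of processes that consume NADPH were tallied by process. Of 15 genes of fatty acid and sterol synthesis, 8 fell and 0 rose at WL1 against Pre. At WL2, 8 fell and 0 rose against Pre, and the medians were -0.58 and -0.69. The list was not restricted to enzymes that take electrons from NADPH directly, and the desaturases on it were not told apart. Besides *Fasn*, the genes that fell included *Scd2*, a desaturase (-2.27 and -3.29), and at WL1 *Scd1* (-1.47). Of 17 genes of redox defence and oxidant production, 1 rose and 0 fell at each time against Pre. At WL1 this was *Nox4* (0.72, edgeR adjusted p = 0.0433), an NADPH oxidase, whose call was lost in each of the 9 fits that left out 1 library (from 0.60 to 0.83). At WL2 it was *Gsr* (0.62, edgeR adjusted p = 0.00266), glutathione reductase, which was called in each of these fits. DESeq2 called 4 of the 17 higher at WL1 and 1 at WL2, beside 14.4% and 16% of all genes called in either direction. An unadjusted p under 0.05 was found for 9 of the 17 at WL1 and 3 at WL2. The medians were 0.26 and -0.0830. Among 12 targets of the oxidant response factor NRF2 outside the members, *Gstm1* rose at WL1 (0.70, edgeR adjusted p = 0.00585), and *Gsta4*, also a glutathione transferase, fell at WL1 (-1.23, edgeR adjusted p = 0.0115) and rose at WL2 (1.05, edgeR adjusted p = 0.0126, lost in 2 of the 9 fits).

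Of 11 regulators and markers of sugar-fed lipogenesis, 4 fell at WL1 and 3 at WL2 against Pre, and 0 rose. *Srebf1*, the gene of the lipogenic factor SREBP1, fell by 0.92 and 0.88 on the log2 scale (edgeR adjusted p = 0.00171 and 0.00111). *Insig1*, a target and inhibitor of SREBP processing, fell by 1.09 and 2.01, and *Thrsp*, a carbohydrate-responsive lipogenic gene, by 1.65 and 0.70. The WL2 call of *Thrsp* was lost in 4 of the 9 fits that left out 1 library (from -0.76 to -0.56). *Mlxipl*, the gene of the carbohydrate-responsive factor ChREBP, fell at WL1 by 0.61 (edgeR adjusted p = 0.0492), and this call was lost in 7 of the 9 fits that left out 1 library (from -0.77 to -0.50).

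**Figure D5:**
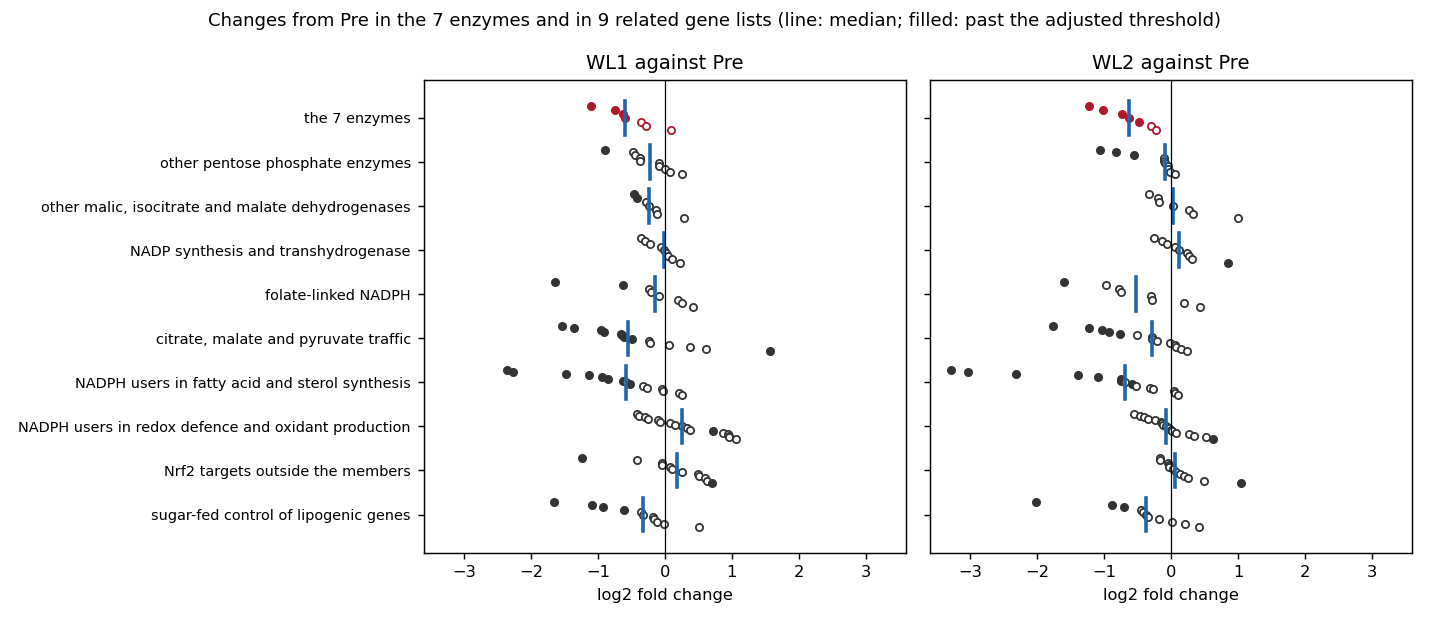
Log2 fold changes against Pre (horizontal axis) of the 7 enzymes and of 9 lists of related genes at WL1 and WL2; each point is a gene, filled where it passed the adjusted threshold of edgeR, and the line is the median of the list. The medians of the 7 enzymes (-0.60 and -0.63) lie on the side of the lipid-synthesis genes (-0.58 and -0.69), while that of the redox genes is 0.26 and -0.0830.

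The members were not each other's nearest neighbours. Likeness was measured as the root mean square difference of log2 CPM, centred on the gene's mean, over the 9 libraries, among 9705 other protein-coding genes with a mean of at least 10 CPM. Nearest to *Me1* were *Cnnm2* (0.104), *Amer1* (0.109) and *Hspa12a* (0.111), to *Pgd* *Paqr7* (0.104), *Degs1* (0.107) and *Slc22a4* (0.108) and to *G6pdx* *Eml3* (0.0489), *Sipa1* (0.0641) and *Rab35* (0.0752). Nearest to *Taldo1* were *Lamtor4* (0.0961), *Higd2a* (0.109) and *Eef1akmt1* (0.114), to *Tkt* *Psmd13* (0.0335), *Aar2* (0.0485) and *Ppp2r1a* (0.0491), to *Idh1* *Nfkbib* (0.0592), *4931406C07Rik* (0.0682) and *Endod1* (0.0724) and to *Mdh1* *Tmem250-ps* (0.0630), *Pdhb* (0.0749) and *Acads* (0.0764). Among these, *Pdhb* and *Acads* encode mitochondrial enzymes of pyruvate and short-chain fatty acid oxidation. The closest pair of members was *Tkt* and *Idh1* (0.150), and the member closest to *Me1* was *Taldo1* (0.290), which stood at rank 266 among the genes compared. The measure describes these libraries and favours genes whose changes are of the same size.

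Markers of cell types moved with the phases as well. The summed level of 14 adipocyte markers spanned 38101 to 56253 CPM in the Pre libraries, 32005 to 39779 in WL1 and 43123 to 44437 in WL2. Of the 14, 4 fell at WL1, and 3 rose and 2 fell at WL2 against Pre in edgeR, with median log2 fold changes of -0.49 and -0.07. At WL1, 13 of the 14 had negative values, 10 had an unadjusted p under 0.05, and DESeq2 called 8 lower. At WL2, DESeq2 called 3 higher and 2 lower. Among those that rose at WL2, *Cfd* and *Pck1* lost their edgeR calls without Pre replicate 2 (1.61 and 1.33). The sum of 14 macrophage markers was 2253 to 4045 CPM at Pre, 4767 to 9419 at WL1, above all Pre libraries, and 2441 to 5218 at WL2. In edgeR, 2 genes, *Trem2* and *Msr1*, were called higher at WL1 and 0 were called at WL2. DESeq2 called 5 higher at WL1 and 0 at WL2, and 9 and 0 had an unadjusted p under 0.05. The median log2 fold change was 1.02 at WL1 and 0.15 at WL2. Each of the 2 edgeR calls was lost in 7 of the 9 fits that left out 1 library, and without Pre replicate 2 the log2 fold changes were 1.89 and 1.698. The sum of 5 red blood cell markers spanned 989 to 1617 CPM in Pre, 360.2 to 596 in WL1 and 421 to 784 in WL2. Of these, 4 fell at WL1 and 3 at WL2, where *Hba-a1* and *Hbb-bs* lost their calls without Pre replicate 2 (-0.95 and -0.80). Among fibroblast markers, *Dcn* rose and *Col3a1* fell at WL2 and 0 of 11 were called at WL1 (DESeq2 called 0, and 3 had an unadjusted p under 0.05). No endothelial, mesothelial or lymphocyte marker of 7, 6 and 8 tested was called against Pre at either time by edgeR or DESeq2 (at an unadjusted p under 0.05, 0, 0 and 2 at WL1 and 1, 0 and 2 at WL2). At WL2 the call of *Col3a1* was lost in 5 and that of *Dcn* in 4 of the 9 fits, and both without Pre replicate 2 (-0.84 and 0.83). Sums of 11 fibroblast and 7 endothelial markers overlapped between all phases, and mesothelial markers ranged from 37.3 to 658 CPM. Skeletal muscle markers held 31.0 to 47.2 CPM at Pre, 8.13 to 15.1 at WL1 and 9.36 to 27.3 at WL2, with *Myh4* at 0. This sum was mostly *Acta1* (38.7 ± 8.62 CPM at Pre), which was called lower at WL1, while the median log2 fold change of the 5 tested was 0.18 at WL1 and 0.44 at WL2, and the other 4 had positive values at WL1. Liver markers summed to 1295 to 3308 CPM, nearly all of it *Trf* (1237 to 3302 CPM), which had a positive value at WL2 (0.66). The other 7 of the 8 had negative values at WL2 against Pre, and *Apoa2* and *Serpina1a* were called lower. The call of *Apoa2* was lost in 5 of the 9 fits, Pre replicate 2 among those left out (-4.01). The part of these cell types in the levels of the 7 enzymes was not tested.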

How the data were processed

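RNA of epididymal adipose tissue was sequenced in 9 libraries, 3 per phase, and grouped by the sample titles. The labels do not state that each library is 1 mouse, so that p-values measure the spread between these samples. The authors deposited unnormalized whole-number counts and, for the same genes, FPKM (fragments scaled by gene length and library size). The submitters' processing notes name HISAT2, HISAT, TopHat2, CASAVA, GRCm38 and mm10 without roles. GENCODE M21 (GRCm38) shares 52073 genes with the table, of which 1472 have identical ends, among them 0 of the 7 enzymes. Gene coordinates are therefore those of the authors' table and carry no build. The counting program, strand setting and annotation were not given in the sources used here. Columns that matched no sample numbered 0, and rows without a gene name 0.

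The 18510 genes reaching 0.5 CPM in 1 library or more entered edgeR 4.0.16 under R 4.3.3 (glmQLFit, glmQLFTest, TMM factors of 0.933 to 1.07). Intervals are 95% for single genes. The procedure was tested on simulated counts drawn with the dispersions of the same fit. Such counts check the code and not how well the model holds for these data. No replicates were alike within counting error (chi-square over its degrees of freedom, 9.88 to 53.8). Ratios used FPKM and an exact permutation test in Python 3.11.15. Of the symbol *Nnt*, used for 2 rows, the row with reads was taken.

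Named are the 7 enzymes, their isoforms, *Slc25a1*, *Fasn* and *Adipoq*, up to 4 called genes per list with the largest change and a mean of at least 1 CPM, not all of which are printed, and the 3 nearest genes of each enzyme. One gene that this rule names is not reported here. *Ikbkg*, *Wdpcp*, *Nnt*, and epididymis and muscle markers at 0 were named for overlap or low counts, after their values were seen. *Nfe2l2* and *Keap1* were named because the title of their list does not describe them, also after their values were seen. The enzymes, lists, ratios and motifs were chosen with earlier results of these data known. Alternatives were no filter and a filter on 3 libraries, DESeq2 1.42.0, RLE and upper quartile factors, library totals, the replicate number as a block, limma 3.58.1 on log2(FPKM + 1), with and without a filter at 0.5 FPKM, and on log2(FPKM + 0.1), fitting only the compared phases, and leaving out each library.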

Additional observations from a re-analysis of the deposited data

Results flagged for a closer look

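The change of *Pgd* from Pre differed between the time points: the WL2 against WL1 difference, which tests this directly, was -0.60 on the log2 scale (SE 0.12, adjusted p in edgeR = 0.0250), and the WL2 libraries all lay below the WL1 libraries. Of all genes tested, 3.68% were called in this comparison. Over the alternatives its adjusted p ranged from 9.58e-05 to 0.143.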

How the results depend on the processing

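Of the 7 enzymes, 3 to 5 were called at WL1 against Pre under every alternative listed above, and *Me1*, *Pgd* and *Mdh1* each time. At WL2 against Pre, 3 to 6 were called, and *Me1*, *Pgd* and *Idh1* each time. Leaving out each library in turn gave 3 to 4 at WL1 against Pre, 3 to 5 at WL2 against Pre, with 3 without WL2 replicates 2 or 3, and 0 to 1 at WL2 against WL1, with 0 without WL1 replicates 2 or 3 or WL2 replicates 2 or 3. At WL2 against WL1, DESeq2 called 4 (*G6pdx*, *Idh1*, *Mdh1* and *Pgd*), where it called 11.9% of all genes with an adjusted p. With the replicate number as a block, 4, 4 and 0 were called in the 3 comparisons and 7 of the 9 ratios passed. Libraries of the same number did not deviate together (correlations from -0.233 to 0.0913, best with their own number in 4 of 18 cases), so that they share only a number. The 9 ratios passed under the other alternatives and in each fit without 1 library. Of 420 values of the 7 enzymes under an alternative, 395 kept their direction and their side of the threshold, 16 lost and 5 gained the call, and 4 changed sign. The latter were *Taldo1* at WL2 against WL1, whose 0.00432 became -0.000161 without the filter, -0.00456 with the replicate block, -0.109 without WL1 replicate 1 and -0.103 without WL2 replicate 1 (-0.109 to 0.115 over the fits without 1 library). Scaling by library totals moved the median of all genes to 0.12 at WL1 and 0.16 at WL2 against Pre, and *Tkt* lost its call at WL2. Causes were not tested. At 3464 reads or more per library, depth did not limit the 7 enzymes, whereas *Me3*, at a mean of 2.70 CPM, was measured with wider error.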
